A study of Mus musculus with 8 samples.

Results

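Elastic fibre and crosslinking genes were measured in whole aortas of atherosclerotic mice with and without natriuretic peptide receptor C (NPRC), a receptor that removes natriuretic peptides from the circulation and also signals through inhibitory G proteins. The group holds 10 genes, of 41186 gene names in the table: Eln, Fbn1, Mfap4, Mfap5, Emilin1, Fbln5, Efemp2, Ltbp4, Lox and Loxl1. They were chosen by name, and where a name stood on several loci the locus with the largest summed count was used. All 10 passed the filter on low values (at least 1 FPKM in at least 3 libraries). FPKM is a fragment count divided by transcript length and by sequencing depth, so levels of different genes can be compared.

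Elastic fibres let the aorta stretch with each heartbeat and recoil. They consist of a core of crosslinked elastin, laid down as tropoelastin on a scaffold of fibrillin microfibrils. Fibulins and latent TGF-β binding proteins guide tropoelastin onto the microfibrils, and copper-dependent lysyl oxidases then link its lysines. In the vessel wall smooth muscle cells and fibroblasts make these proteins, most of the elastin is deposited early in life, and elastic lamellae are often broken in atherosclerotic vessels.

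All mice lacked ApoE, the lipoprotein ligand whose loss raises plasma cholesterol, and had eaten a Western diet for 12 weeks. The second genotype also lacked NPRC throughout the body, through a CRISPR frameshift in the first exon of Npr3 made in C57BL/6 mice. The age of these litters was not given in the sources used here. By title, 5 libraries were ApoE-/- (1 to 5, the single knockout) and 3 were NPRC-/-ApoE-/- (1 to 3, the double knockout).

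The genotype entry of 4 of the 8 libraries names the other genotype: the pair titled ApoE-/- 4 and 5 is entered as Nprc-/-Apoe-/-, and the pair titled NPRC-/-ApoE-/- 1 and 2 is entered as Apoe-/-. The fold changes of the 10 genes are therefore given by title and by genotype entry, and both groupings set 5 libraries against 3. The methods describe sequencing of 5 mice per genotype, and the 8 libraries given here were analysed. Npr3 measured 0.62 to 1.69 FPKM in the titled single knockouts and 1.13 to 1.39 FPKM in the titled double knockouts. A frameshift need not lower the RNA, so this level checks neither label. Total counts ran from 62969165 to 86693276 per library, and the 10 genes took 0.302 to 0.534% of them. The smooth muscle genes Acta2 (849 to 1982 FPKM) and Myh11 (109 to 324 FPKM) were high in every library, and brown fat Ucp1 (71.8 to 343 FPKM) was present in all 8. The labels do not state that each library came from its own animal, and the p-values measure the spread between libraries.

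No log2 fold change of the 10 genes reached an adjusted p under 0.05 in edgeR's quasi-likelihood test, under either label. By title, 0 of 10 had an unadjusted p under 0.05 in this test, against 13.6% of the 20506 loci tested (7.13% lower and 6.51% higher in the double knockout). An adjusted p under 0.05 was reached by 0 of 10 genes and by 0.0% of the loci, and the criterion of the study (a fold change above 2 or under 0.5 with an unadjusted p under 0.05) by 0 of 10 and 3.47%. The FPKM ranges of the titled groups overlapped for all 10, while 7.25% of the loci had groups that did not overlap. By genotype entry the 4 counts for the genes were again 0 of 10, against 1.31%, 0.0%, 0.463% and 0.97% of the loci. DESeq2 and limma on log2(FPKM + 1) also gave 0 of 10 genes with an unadjusted p under 0.05 under both labels. By title, limma with library weights gave 1 of 10 (Lox, -0.74), with an adjusted p above 0.05. In that fit 5419 of the 20506 loci had an unadjusted p under 0.05. Over all loci, DESeq2 gave 644 adjusted calls by title and 9 by genotype entry. The fitted values lay below 0 for 9 genes and above 0 for 1 by title, with a median log2 fold change of -0.19 against -0.01 over all loci. By genotype entry, 3 lay below 0 and 7 above, with a median of 0.10 against 0.00 over all loci. The order by level and the overlap of the groups are shown in the plot of FPKM by library.

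**Figure D1:**
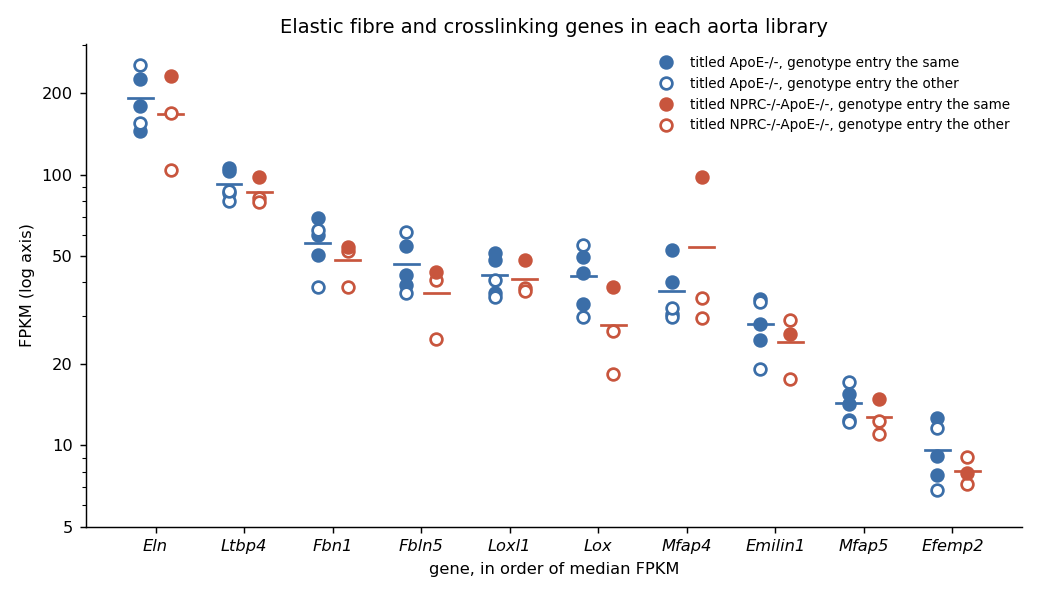
FPKM of the 10 genes in each library on a log axis, with genes in order of their median and the libraries titled ApoE-/- (blue) and NPRC-/-ApoE-/- (red) side by side. Bars are group means by title, and open circles are libraries whose genotype entry names the other genotype. Eln lies highest with a median of 174 FPKM and Efemp2 lowest with 8.48 FPKM, and the groups overlap for every gene.

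The order of the levels was Eln (median 174 FPKM), Ltbp4 (86.2), Fbn1 (53.0), Fbln5 (41.6), Loxl1 (39.5), Lox (36.0), Mfap4 (33.5), Emilin1 (26.9), Mfap5 (13.3) and Efemp2 (8.48 FPKM). Eln stood above Ltbp4, Ltbp4 above Fbn1, Fbn1 above Fbln5 and Emilin1 above Mfap5 in 8 of 8 libraries. The neighbours from Fbln5 to Emilin1 did not keep their order: Fbln5 exceeded Loxl1 in 5 libraries, Loxl1 exceeded Lox in 6, Lox exceeded Mfap4 in 2 and Mfap4 exceeded Emilin1 in 6. Mfap5 exceeded Efemp2 in 7. The largest spread over libraries was that of Mfap4 (3.30-fold from lowest to highest) and the smallest that of Ltbp4 (1.33-fold).

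Eln encodes tropoelastin and spans positions 134702593 to 134747323 of chromosome 5 (minus strand, GRCm38, GENCODE M21). Its longest annotated coding sequence has 860 codons, of which 76.9% encode glycine, valine, alanine or proline. It has 38 lysine codons, and in 12 places a lysine follows another after 2 or 3 alanines, the arrangement of the crosslinking domains. The whole codons of exon 18, at chr5:134718990-134719046 on the minus strand, are printed because they hold such lysines, which Lox and Loxl1 oxidise. Bases of codons split across an exon border are left out. Capitals mark the 3 lysine codons, and the letters run 5′ to 3′ along the transcript.
Eln exon 18: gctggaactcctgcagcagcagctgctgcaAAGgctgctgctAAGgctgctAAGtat

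In the libraries titled ApoE-/- 1 to 5, Eln was at 145, 179, 224, 253 and 155 FPKM, and in those titled NPRC-/-ApoE-/- 1 to 3 at 168, 104 and 231 FPKM. The double knockout libraries lay both near the top and at the very bottom of the range, so the groups overlapped. The log2 fold change (double minus single knockout) was -0.17 by title (SE 0.33, 95% interval -0.92 to 0.58, adjusted p = 0.841). By genotype entry it was 0.41 (interval -0.30 to 1.12, adjusted p = 1.0), with the sign turned. Without the library NPRC-/-ApoE-/- 2, the titled value was 0.12. In whole tissue, fewer cells that make a gene and less RNA per cell cannot be told apart, and this holds for every value here.

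Fbn1 encodes fibrillin-1, the backbone of the microfibril (chromosome 2, minus strand, 125300594 to 125507993). Its coding sequence has 2873 codons, 12.6% of them for cysteine, and 43 matches to the calcium-binding EGF pattern, against 6 in Fbln5, 6 in Efemp2 and 17 in Ltbp4. Fbn1 was at 50.7, 59.7, 68.9, 62.6 and 38.4 FPKM in the titled single knockouts and at 52.1, 38.6 and 53.8 FPKM in the titled double knockouts. All 3 double knockout libraries fell inside the range of the single knockouts. By title the log2 fold change was -0.21 (SE 0.25, adjusted p = 0.737) and -0.03 by genotype entry (adjusted p = 1.0).

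Mfap4 (chromosome 11, plus strand, 61485431 to 61488900) encodes a microfibril-associated protein that binds elastin and fibrillin. It was the one gene of the 10 with a higher fitted level by title. Its level was 40.1, 52.7, 30.4, 29.8 and 32.1 FPKM in ApoE-/- 1 to 5, and 29.6, 34.9 and 97.6 FPKM in NPRC-/-ApoE-/- 1 to 3. A single library, NPRC-/-ApoE-/- 3, stood above all others, while NPRC-/-ApoE-/- 1 had the lowest value of all. The log2 fold change was 0.60 by title (SE 0.39, interval -0.28 to 1.49, adjusted p = 0.514) and 0.56 by genotype entry (adjusted p = 1.0), since both labels place that library in the double knockout. Without it the values were -0.19 and -0.27, and without NPRC-/-ApoE-/- 1 the titled value was 0.91 (unadjusted p under 0.05, adjusted p = 0.212).

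Mfap5 (chromosome 6, plus strand, 122505845 to 122529290), also called MAGP-2, binds fibrillin along the microfibril. Its level was 14.2, 15.5, 12.4, 12.2 and 17.1 FPKM in the titled single knockouts and 12.3, 11.1 and 14.9 FPKM in the titled double knockouts. The groups overlapped, with NPRC-/-ApoE-/- 2 lowest and ApoE-/- 5 highest. Its log2 fold change was -0.13 by title (SE 0.15, adjusted p = 0.717) and 0.20 by genotype entry (adjusted p = 1.0).

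Emilin1 encodes a glycoprotein at the border between the elastin core and the microfibrils, on the plus strand of chromosome 5 from 30913402 to 30921277. It was at 24.6, 28.0, 34.7, 33.7 and 19.1 FPKM in the titled single knockouts and at 29.0, 17.5 and 25.8 FPKM in the titled double knockouts. Only the double knockout library 2 lay outside the single knockout range, just below its lowest value. For Emilin1 the log2 fold change was -0.21 by title (SE 0.27, adjusted p = 0.751) and 0.01 by genotype entry (adjusted p = 1.0).

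Among the coding sequences of the 10 genes, those of Fbn1, Fbln5, Mfap4, Mfap5 and Emilin1 each hold 1 run of arginine, glycine and aspartate codons, the tripeptide that integrins recognise in several matrix proteins, and the other 5 hold none. The runs that lie in a single exon are printed to compare them, with the 3 codons in capitals and, where the exon allows, the codons around them. They were read from the GENCODE M21 transcripts and lie at chr2:125345958-125345996 (minus strand) for Fbn1, chr12:101809912-101809950 (minus strand) for Fbln5, chr11:61485796-61485804 (plus strand) for Mfap4 and chr5:30918133-30918171 (plus strand) for Emilin1.
Fbn1 exon 38: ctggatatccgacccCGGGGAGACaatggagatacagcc
Fbln5 exon 4: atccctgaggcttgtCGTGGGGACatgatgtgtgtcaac
Mfap4 exon 2: CGGGGAGAT
Emilin1 exon 4: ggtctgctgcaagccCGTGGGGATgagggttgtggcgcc

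Fbln5 and Efemp2 encode fibulin-5 and fibulin-4, short fibulins that bring tropoelastin and the lysyl oxidases together. Fbln5 lies on the minus strand of chromosome 12 (101746565 to 101819055) and Efemp2 on the plus strand of chromosome 19 (5473954 to 5482517). Fbln5 was at 38.9, 54.6, 42.4, 61.5 and 36.6 FPKM in ApoE-/- 1 to 5 and at 40.9, 24.8 and 43.5 FPKM in NPRC-/-ApoE-/- 1 to 3. Efemp2 was at 7.75, 9.13, 12.6, 11.6 and 6.81 FPKM in the first group and at 9.06, 7.17 and 7.90 FPKM in the second. For Fbln5 the double knockout library 2 was lowest of all, and for Efemp2 all 3 lay inside the range of the single knockouts. The log2 fold change of Fbln5 was -0.34 by title (SE 0.27, adjusted p = 0.579) and 0.27 by genotype entry (adjusted p = 1.0). That of Efemp2 was -0.25 by title (SE 0.25, adjusted p = 0.679) and -0.03 by genotype entry (adjusted p = 1.0).

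RefSeq promoter windows were at hand for 5 of the 10 genes, namely Fbn1, Emilin1, Ltbp4, Fbln5 and Efemp2, with 10 windows in all, some of which overlap. Each runs from 250 bases before a start site to 50 after it. The GC box GGGCGG, searched on both strands, was in 8 of the 10 windows and in at least 1 window of 4 genes, against 35.7% of 32851 mouse promoters of the same length. The short SMAD site CAGAC, also on both strands, was in 4 windows of 3 genes, against 49.6% of all promoters. The TATA box TATAAA (sense strand, 8.32% of promoters), the AP-1 site TGACTCA (both strands, 5.2%), the SMAD box GTCTAGAC (both strands, 0.213%) and the CArG box (both strands, 1.63%) were in none of the 10. The parts before the start site are printed for the fibulins, whose windows at the outermost start lie outside the annotated genes (GRCm38.p6, chr12:101819120-101819369 on the minus strand and chr19:5473696-5473945 on the plus strand). Capitals mark the GC boxes and short SMAD sites, and CCGCCC and GTCTG are the same letters on the other strand. A match is a description of the letters and no sign of binding.
Fbln5 upstream: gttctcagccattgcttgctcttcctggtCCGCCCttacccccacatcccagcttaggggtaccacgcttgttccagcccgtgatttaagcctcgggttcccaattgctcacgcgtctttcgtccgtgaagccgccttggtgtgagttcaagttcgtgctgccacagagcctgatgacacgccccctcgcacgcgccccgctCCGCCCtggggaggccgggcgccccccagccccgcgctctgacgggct
Efemp2 upstream: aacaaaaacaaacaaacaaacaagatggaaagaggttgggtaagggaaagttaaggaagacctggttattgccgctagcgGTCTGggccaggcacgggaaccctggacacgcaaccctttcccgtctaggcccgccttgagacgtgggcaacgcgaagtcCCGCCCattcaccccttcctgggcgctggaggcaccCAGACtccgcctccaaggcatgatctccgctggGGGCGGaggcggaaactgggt

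Ltbp4 (chromosome 7, minus strand, 27305136 to 27337692) encodes a latent TGF-β binding protein that works with fibulin-5 in fibre assembly. It was the second most abundant of the 10 and the most even, at 85.3, 103, 106, 79.8 and 87.2 FPKM in the titled single knockouts and at 81.7, 79.4 and 97.6 FPKM in the titled double knockouts. The groups overlapped, with NPRC-/-ApoE-/- 2 just below the lowest single knockout. Its log2 fold change was -0.07 by title (SE 0.18, interval -0.47 to 0.32, adjusted p = 0.875) and -0.02 by genotype entry (adjusted p = 1.0).

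**Figure D2:**
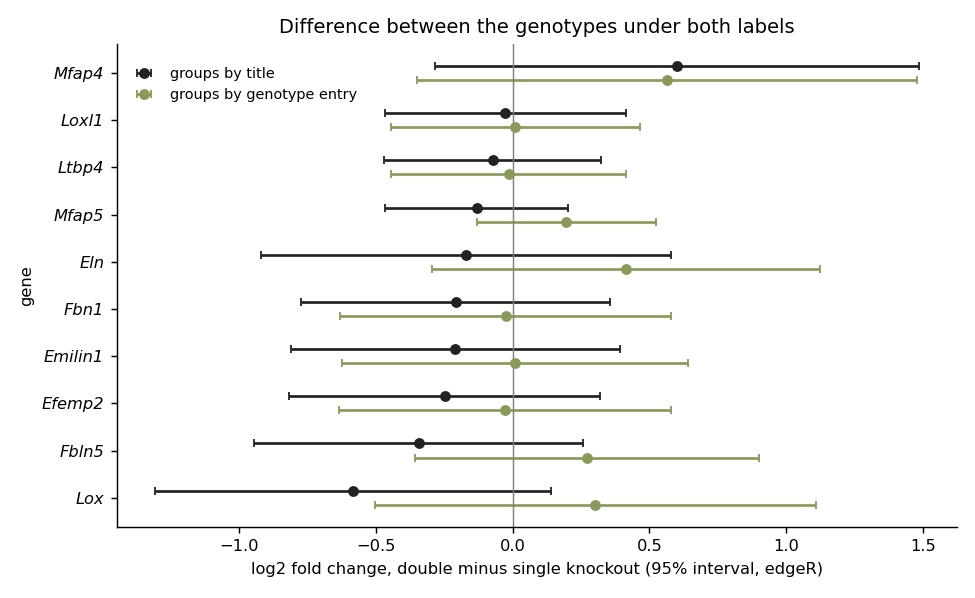
log2 fold change of the 10 genes (double minus single knockout) with 95% intervals from edgeR, by title (black) and by genotype entry (green). Every interval contains 0, and the estimates of Lox are -0.58 and 0.30 under the 2 labels.

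Lox (chromosome 18, minus strand, 52516067 to 52529867) encodes lysyl oxidase, the enzyme that turns lysines of elastin and collagen into reactive aldehydes. It had the largest fitted difference of the 9 genes below 0 by title. The enzyme's gene was at 33.4, 43.2, 49.6, 55.0 and 29.7 FPKM in ApoE-/- 1 to 5 and at 26.5, 18.3 and 38.6 FPKM in NPRC-/-ApoE-/- 1 to 3. Among the double knockouts, libraries 1 and 2 lay below every single knockout and library 3 in the middle of them. The log2 fold change was -0.58 by title (SE 0.32, interval -1.31 to 0.14, adjusted p = 0.444). By genotype entry it was 0.30 (interval -0.50 to 1.11, adjusted p = 1.0), and the sign was the opposite. The titled difference was -0.93 without NPRC-/-ApoE-/- 3 (unadjusted p under 0.05, adjusted p = 0.735) and -0.32 without NPRC-/-ApoE-/- 2, and over all alternatives with a test the adjusted p ran from 0.181 to 0.866. With the 4 libraries on which title and entry match it was -0.02, with 1 double knockout library and no test. Both double knockout libraries with low Lox are titled NPRC-/-ApoE-/- but entered as Apoe-/-, so the direction rests on the choice of label.

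Loxl1, the family member that elastin homeostasis in adult tissue depends on, spans positions 58287738 to 58313186 of chromosome 9 (minus strand). It was at 36.6, 51.2, 48.4, 40.9 and 35.2 FPKM in the titled single knockouts and at 38.0, 37.0 and 48.3 FPKM in the titled double knockouts. All 3 double knockout libraries lay inside the single knockout range. Loxl1 had a log2 fold change of -0.03 by title (SE 0.19, interval -0.47 to 0.41, adjusted p = 0.969) and 0.01 by genotype entry (adjusted p = 1.0).

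Ratios within a library do not depend on how libraries are scaled, so each gene was also set against Eln. Lox RNA was 23.0, 24.2, 22.1, 21.7 and 19.2% of the Eln level in ApoE-/- 1 to 5 and 15.8, 17.6 and 16.7% in NPRC-/-ApoE-/- 1 to 3. The titled groups did not overlap for Lox, and they overlapped for the other 8 genes. The mean log2 ratio was -2.19 ± 0.12 (SD, n = 5) and -2.58 ± 0.08 (SD, n = 3), a difference of -0.40 with a two-sided exact permutation p = 0.0357, the smallest that 5 against 3 libraries can give. The adjusted p over the 20238 loci above 0 in every library was 0.972. Of these loci, 1.58% had a ratio to Eln without overlap, 0.677% with the double knockout lower, and 8.17% had a lower difference than Lox. By genotype entry the Lox ratio differed by -0.08 (exact p = 0.643) and the groups overlapped. Instead Fbn1 (-0.46), Efemp2 (-0.46) and Emilin1 (-0.42) were lower relative to Eln without overlap, against 2.98% of the loci. Each had an exact p = 0.0357 and an adjusted p = 0.648. These 3 ratios share Eln as denominator and are not independent. By genotype entry the log2 fold change of Eln itself was 0.415, and those of Fbn1, Efemp2 and Emilin1 were -0.025, -0.028 and 0.008.

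**Figure D3:**
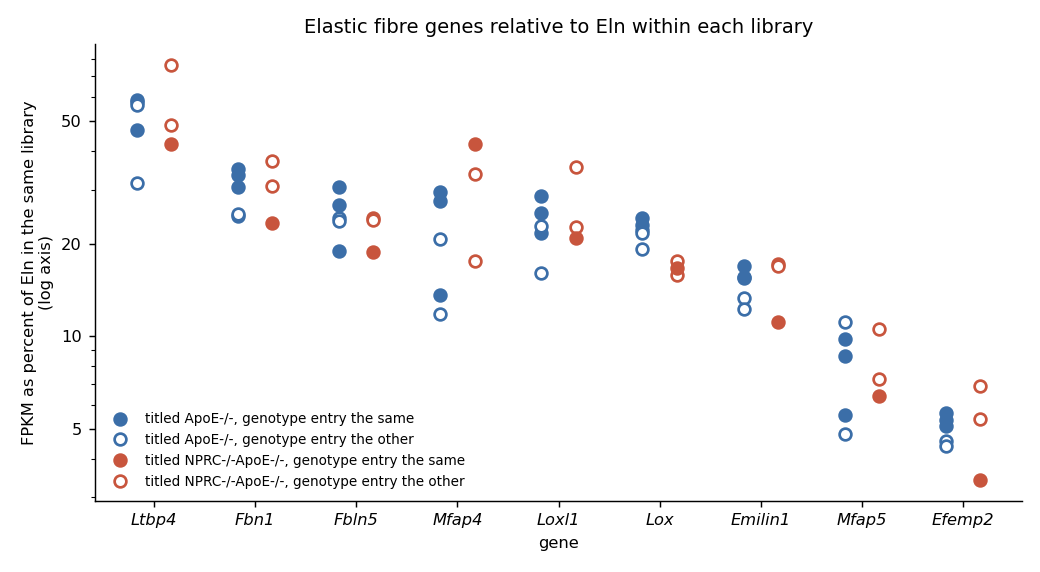
FPKM of the other 9 genes as a percent of Eln in the same library, on a log axis, with colours and open circles as in the plot of FPKM by library. The Lox values titled NPRC-/-ApoE-/- (15.8 to 17.6%) lie below those titled ApoE-/- (19.2 to 24.2%).

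The levels of cell type markers are given beside these values, and their part in them was not tested. The summed FPKM of 10 fibroblast genes was 799 to 2006 in the titled single knockouts and 459 to 1131 in the titled double knockouts. For 9 macrophage genes the sums were 738 to 2280 and 345 to 1145, and for 11 smooth muscle genes 1576 to 2098 and 1938 to 3514. By genotype entry the ranges of single and double knockouts were 459 to 2006 and 703 to 1858 for fibroblast genes, 470 to 2190 and 345 to 2280 for macrophage genes, and 1576 to 2961 and 1596 to 3514 for smooth muscle genes. The sum of 8 endothelial genes stayed within 90.6 to 108 in all libraries. Every gene of these 4 lists passed 1 FPKM in at least 3 libraries. The fibroblast list includes the collagens Col1a1, Col1a2 and Col3a1 beside less abundant genes such as Pdgfra (4.78 to 13.1 FPKM). Col1a1 exceeded Eln in every library, with Eln at 27.3 to 92.3% of it. The fibroblast sum therefore depends more on such a collagen than on genes at the level of Pdgfra. It is not taken as a measure of fibroblast number. The macrophage list includes Cd68, whose locus carries 8 names. Of 14 marker lists, the titled groups did not overlap for 2, against 7.25% of all loci taken singly, and both overlapped by genotype entry. These were Schwann cell (5 genes, 22.01 to 26.38 and 16.36 to 19.88 FPKM) and sympathetic neuron (4 genes, 2.30 to 16.8 and 0.36 to 0.94 FPKM). At least 1 FPKM in 3 libraries was reached by 4 of the 5 Schwann cell genes and 2 of the 4 sympathetic neuron genes.

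The 10 genes were also set against 5 marker genes of muscle cells and fibroblasts. By title, single and double knockouts had 849 to 1189 and 1172 to 1982 FPKM of Acta2, and 109 to 197 and 171 to 324 of Myh11. Pdgfra was at 6.94 to 13.1 and 4.78 to 7.58 FPKM. A ratio changes with either of its parts, and the part of the marker was not tested. The titled log2 fold changes of Ltbp4 and Mfap5 themselves were -0.07 and -0.13. As a percent of Acta2, the smooth muscle actin, Lox was 2.50 to 5.76% in the titled single knockouts and 1.16 to 2.26% in the titled double knockouts. As a percent of Pdgfra, a fibroblast receptor whose locus carries 2 gene names, Lox was 358 to 548% and 350 to 552%. By title 3 of 10 genes did not overlap relative to Acta2 (Ltbp4, Mfap5 and Lox, against 13.2% of all loci) and 1 relative to Myh11 (Mfap5, against 12.6%), each with the double knockout lower. Relative to Pdgfra 2 did not overlap (Fbn1 and Emilin1, against 8.85%) and relative to Col1a1 1 (Emilin1, against 3.1%), each with the double knockout higher, and relative to Col3a1 0 (2.1% of all loci). By genotype entry 1 of 10 did not overlap relative to Pdgfra (Eln, against 0.215%), and 0 relative to Acta2 (0.415% of all loci), Myh11 (0.288%), Col1a1 (0.078%) and Col3a1 (0.112%).

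Levels also differed between libraries of one group. NPRC-/-ApoE-/- 2 held the lowest value of 6 of the 10 genes and the lowest fibroblast sum (459 FPKM), and ApoE-/- 3 and 4 held the highest value of 4 and 3 genes and the highest fibroblast sums (2006 and 1858 FPKM). NPRC-/-ApoE-/- 3 had the second lowest fibroblast sum (703 FPKM) and an Eln level near the top of the range (231 FPKM). The map of levels by library shows these differences.

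**Figure D4:**
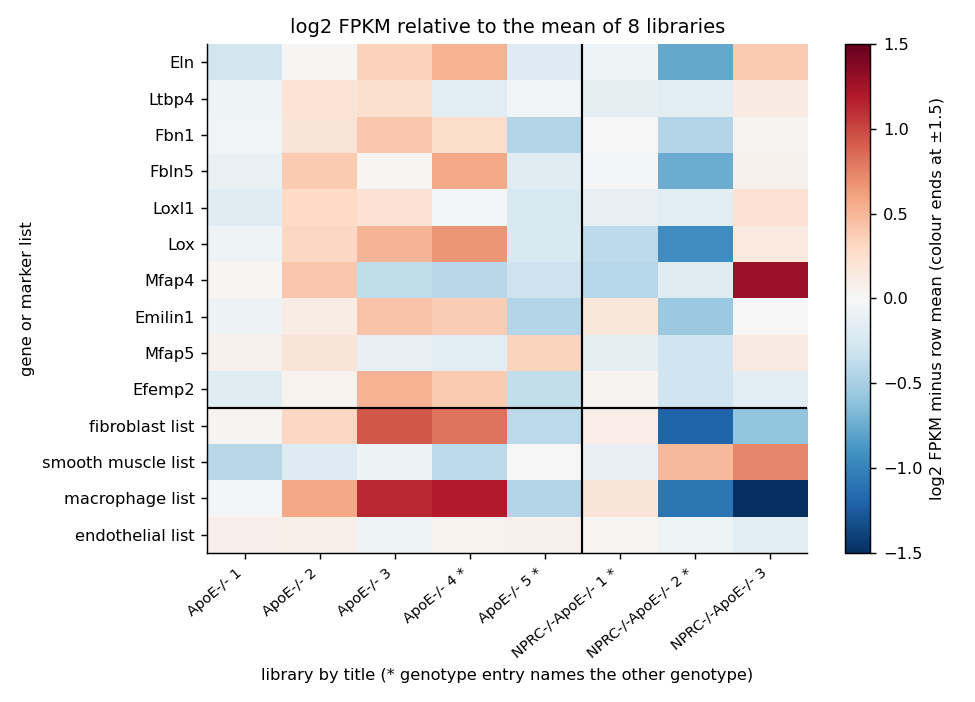
log2 FPKM of the 10 genes and of the summed fibroblast, smooth muscle, macrophage and endothelial markers in each library, relative to the mean of the 8 libraries, with red above and blue below the mean. Libraries marked with a star have a genotype entry that names the other genotype. Most of the 10 genes are high in ApoE-/- 3 and 4 and low in NPRC-/-ApoE-/- 2, and Mfap4 is highest in NPRC-/-ApoE-/- 3.

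How alike the genes varied across the 8 libraries is described pair by pair with Pearson's r of log2 CPM (counts scaled to library size). These points come from both genotypes and share depth and cell content within a library, so r is given without a test. The highest of the 45 pairs was that of Fbn1 and Emilin1 (r = 0.973, Spearman's rho = 0.881), followed by Efemp2 and Emilin1 (r = 0.936) and Fbn1 and Efemp2 (r = 0.926). By Pearson's r over the 8 libraries Eln was closest to Lox (r = 0.914, rho = 0.833), and Ltbp4 to Loxl1 (r = 0.911). By rho Eln was closest to Fbln5 (0.905), and without the 2 libraries farthest from the Eln median it was closest by r to Ltbp4 (0.883) and Loxl1 (0.88), with 0.77 for Lox. Mfap5 with Efemp2 was the lowest pair (r = -0.191), and Mfap4 with Efemp2 had r = -0.12. The loci outside the group that varied most like Eln were Mtpn (r = 0.964), Gm5805 (0.95), Leng9 (0.946), Gm13736 (0.943) and Rcn3 (0.943). They were picked as the highest among all tested loci with a gene name, and over 8 libraries such a choice alone gives high values. Their rho ran from 0.81 (Gm13736) to 0.976, and with 2 libraries left out their r ran from 0.857 (Leng9) to 0.96 (Rcn3). Rcn3, a calcium-binding protein of the endoplasmic reticulum, was the most abundant of these at 21.1 to 37.5 FPKM, and Mtpn stayed between 1.23 and 1.56 FPKM.

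Other loci carried the same names as 5 of the genes, and their counts are given by title. On the opposite strand to Loxl1 a locus had 8.37 to 23.9% of its count in the titled single knockouts and 17.9 to 27.1% in the titled double knockouts. The antisense locus of Mfap5 had 7.65 to 15.8% and 14.8 to 27.2%, and the larger of a pair within Fbn1 had 3.31 to 9.99% and 6.06 to 9.95%. Against Eln the largest had 0.112 to 0.384% and 0.329 to 0.761%. The ranges overlapped in each case. The libraries were made with a kit that marks strand, but whether the counting used strand is not given in the sources used here, and without it reads of both strands cannot be told apart. Genes on the opposite strand also overlap Efemp2 (Mus81), Mfap4 (Mapk7), Fbn1 (Gm9913), Eln (Gm30003) and Lox (AC161119.1).

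Genes that work with elastic fibres were read from the same fits, in 5 lists with 87 tested loci. Among 26 other elastic fibre and microfibril genes, 3 had a lower and 3 a higher level by title at an unadjusted p under 0.05, against 7.13% and 6.51% of all loci, and the median log2 fold change was -0.12. The lower genes were Efemp1, Mfap2 and Mmrn2 and the higher ones Thsd4, Ltbp1 and Adamtsl2. Efemp1, which encodes fibulin-3, was at 1.34 to 2.48 FPKM in the titled single knockouts and at 1.08 to 1.16 FPKM in the titled double knockouts, without overlap (log2 fold change -0.77, SE 0.18, adjusted p = 0.253). Mfap2 encodes MAGP-1, the relative of Mfap5, and was at 2.83 to 5.07 and 2.27 to 2.67 FPKM (-0.69, adjusted p = 0.324). Thsd4, which promotes fibrillin assembly and shares its locus with another name, had a log2 fold change of 0.91 (adjusted p = 0.29).

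Of 17 other crosslinking and processing genes, 3 had a lower level and 0 a higher one at an unadjusted p under 0.05 by title, against 7.13% and 6.51% of all loci, with a median of -0.17. They were Atp7a, the copper pump that loads lysyl oxidases (-0.63, adjusted p = 0.35), Slc31a1, the copper importer (-0.47, adjusted p = 0.35), and Pcolce, an enhancer of procollagen processing (-0.52, adjusted p = 0.358, on a locus with 2 names). The titled groups overlapped for all 3.

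Elastases had the titled median farthest from 0 of the 5 lists, at -1.07. All 10 tested had a fitted value below 0, against 50.9% of all loci, and 5 passed the criterion of the study, against 3.47%. The criterion was also passed by 2 of 8 elastase inhibitors, 2 of 26 regulators of elastin transcription and 0 genes of the elastic fibre and crosslinking lists. The 5 elastases were Mmp14, Mmp2, Ctsl, Ctss and Ctsb, metalloproteinases and lysosomal cathepsins. Mmp12 (-0.51), Mmp9 (-0.31), Ctsk (-0.39), Mmp3 (-1.20) and Adam17 (-0.28) had an unadjusted p above 0.05 in edgeR. Elane, Cela1, Prtn3 and Mmp7 were below the filter, so the list does not cover all elastases. Mmp14 was at 10.5 to 27.1 FPKM in the titled single knockouts and at 6.79 to 10.2 FPKM in the titled double knockouts (-1.21, SE 0.36, adjusted p = 0.272). Ctsl, on a locus with 2 names, was at 44.0 to 147 and 29.4 to 50.6 FPKM (-1.34, adjusted p = 0.301). Mmp2 was at 29.5 to 67.6 and 15.4 to 34.4 FPKM (-1.04, adjusted p = 0.309). Macrophages express several of these genes, and the macrophage sums given above ran lower in the titled double knockouts, with overlapping ranges. Their part was not tested.

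Among 8 elastase inhibitors, Serpinb1a (-1.04, adjusted p = 0.319) and Slpi (-3.31, adjusted p = 0.362) had a lower level and Timp4 a higher one (0.93, adjusted p = 0.255) at an unadjusted p under 0.05 by title (7.13% and 6.51% of all loci), and the list's median was -0.66. Slpi, on a locus with 2 names, ranged from 0.59 to 23.8 FPKM within the titled single knockouts alone. Among 26 regulators of elastin transcription, 5 had a lower and 3 a higher level at an unadjusted p under 0.05 (7.13% and 6.51% of all loci), with a median of -0.02. Jun, a subunit of AP-1, was at 28.5 to 44.0 and 20.24 to 21.01 FPKM (-0.70, SE 0.17, adjusted p = 0.255). Igf1 was at 5.87 to 8.65 and 2.31 to 5.11 FPKM (-1.005, adjusted p = 0.255). Fgf2 was at 0.79 to 1.24 and 1.38 to 1.99 FPKM on a locus with 3 names (0.74, adjusted p = 0.233). These 3 were named for the smallest p of their list. The other regulators at an unadjusted p under 0.05 were Tgfb1 (-0.72), Klf4 (-0.82), Il1b (-2.25), Insr (0.31) and Myocd (0.59). The list holds both activators and repressors, so its counts give no direction for elastin synthesis. The titled groups did not overlap for 6 of the 26 regulators, 4 of the 26 elastic fibre genes, 1 of the 10 elastases and 0 of the other 2 lists, against 7.25% of all loci.

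In none of the 5 lists did edgeR give an adjusted p under 0.05. DESeq2 gave 1 of 26 for the elastic fibre list (Efemp1), 2 of 10 for the elastases (Mmp14 and Ctsl) and 1 of 8 for the inhibitors (Timp4). For the regulators it gave 4 of 26 (Igf1, Insr, Jun and Fgf2). Over all 20506 loci DESeq2 gave 644 by title. In limma on log2(FPKM + 1) the lists had 0. By genotype entry 1 of the 87 loci had an unadjusted p under 0.05 in edgeR, Mrtfa (-0.58), against 1.31% of all loci. The elastase median was -0.02. The 15 genes named by their p from these lists had log2 fold changes of -0.31 (Mmp2) to 0.28 (Thsd4) by genotype entry, each with an adjusted p = 1.0. The plot of related genes sets both labels side by side.

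**Figure D5:**
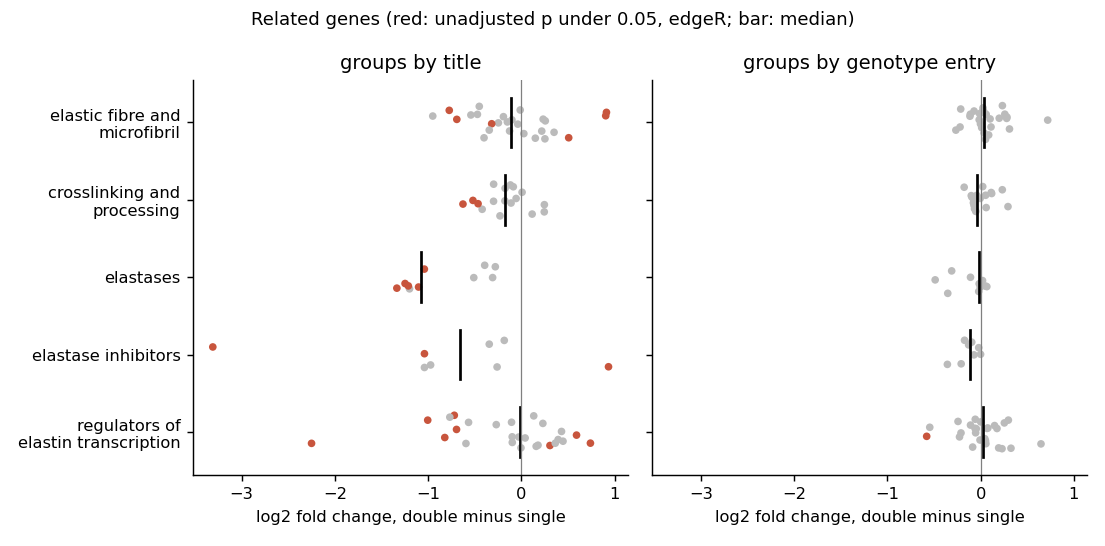
log2 fold change (double minus single knockout) of each tested locus in the 5 lists of related genes, by title (left) and by genotype entry (right), with points spread vertically at random for view. Red points have an unadjusted p under 0.05 in edgeR and bars are medians. The elastase median is -1.07 by title and -0.02 by genotype entry.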

How the data were processed

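The authors extracted RNA from whole aortas, selected poly(A) RNA, made dUTP libraries, trimmed the reads (cutadapt 1.9 in the submitters' processing notes), mapped them with HISAT2 and assembled loci with StringTie. They deposited whole-number counts per locus without normalization. They also deposited FPKM values, normalized by the authors to length and mapped fragments. The build is GRCm38, and the counting tool is not given in the sources used here. The members and lists were chosen with earlier results of these data known.

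The 20506 loci that reached 1 FPKM in 3 or more libraries entered edgeR 4.0.16 in R 4.3.3 (TMM, quasi-likelihood test, Benjamini-Hochberg adjustment over all loci). DESeq2 1.42.0, limma 3.58.1, other scalings and filters, left-out libraries and a replicate block were alternatives. Ratios to Eln were compared with exact permutation tests in scipy 1.17.1. Their p-values were to be adjusted over 9 genes in the planned design and were adjusted over 20238 loci instead. Named were the 10 genes, Npr3, marker genes, the 5 loci closest to Eln and, from each related list, the 3 genes with the smallest p by title; others were named after their values were seen. Depth was 62969165 to 86693276 counts, and the biological coefficient of variation of 0.327 limits the precision more than depth. The fit was tested on simulated data.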

Additional observations from a re-analysis of the deposited data

How the results depend on the processing

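The adjusted p of the 10 genes stayed above 0.05 under every alternative run, by title and by genotype entry. The number of genes with an unadjusted p under 0.05 by title was 0, and it was 1 (Lox, -0.74) in limma with library weights and 0 to 1 when each library was left out (Mfap4 without NPRC-/-ApoE-/- 1, Lox without NPRC-/-ApoE-/- 3). Related genes with an unadjusted p by title numbered 25, then 16 with a replicate block in the 6 libraries numbered 1 to 3, and 9 to 33 with 1 library left out, the lowest without NPRC-/-ApoE-/- 3 (12 without NPRC-/-ApoE-/- 2 or ApoE-/- 3, 16 without ApoE-/- 4). By genotype entry they numbered 1, and 0 to 5 with 1 library left out (5 without ApoE-/- 4). Deviations of log2 CPM from the group mean correlated at -0.314, -0.113 and 0.007 for libraries of the same number, and at -0.16 to 0.23 for other pairs. With 3 libraries per group, these values cannot show whether the numbers pair libraries. All loci with an unadjusted p by title numbered 2797, 1332 to 4431 with 1 library left out, 5419 with library weights, 4666 of 44689 without a filter, 736 of 4246 at a mean of 5 FPKM, and 1813 with the block against 2651 in the same 6 libraries without it. By title, loci with an adjusted p under 0.05 numbered 0 in edgeR, 644 in DESeq2, 130 with library weights, 45 without NPRC-/-ApoE-/- 1 and 0 to 2 under the other alternatives. By genotype entry they numbered 0 in edgeR, 9 in DESeq2 and 0 to 2 otherwise. By genotype entry 269 loci (143 lower, 126 higher) had an unadjusted p, 242 with total counts only (162 lower, 80 higher), 184 to 730 with 1 library left out, 992 without a filter and 25 at a mean of 5 FPKM.

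Signs turned for most of the values below, and the cause was not tested beyond the construction of each alternative. With 1 library left out, the titled log2 fold changes ran from -0.198 to 0.0253 for Ltbp4, -0.185 to 0.0833 for Loxl1, -0.51 to 0.12 for Eln, -0.337 to 0.00931 for Emilin1 and -0.19 to 0.91 for Mfap4. They kept their sign but ran from -0.52 to -0.0974 for Fbln5, -0.33 to -0.0344 for Fbn1, -0.37 to -0.0826 for Efemp2, -0.288 to -0.0046 for Mfap5 and -0.93 to -0.32 for Lox, with the value nearest 0 without NPRC-/-ApoE-/- 2 except for Efemp2 (without ApoE-/- 3). By genotype entry they ran from -0.124 to 0.084 for Ltbp4, -0.215 to 0.23 for Emilin1, -0.14 to 0.16 for Loxl1, -0.18 to 0.19 for Fbn1, -0.28 to 0.17 for Efemp2 and -0.27 to 0.87 for Mfap4. A filter at a mean of 5 FPKM gave 0.0189 for Ltbp4 and 0.076 for Loxl1 by title and 0.0163 for Ltbp4 by genotype entry. By genotype entry Ltbp4 was at 7.02e-06 with median-ratio scaling and 8.68e-06 in DESeq2. Emilin1 was at -0.0431 and Loxl1 at -0.0361 with total counts only, at -0.0333 and -0.0236 in limma with a pseudocount of 1, and at -0.0345 and -0.024 with one of 0.1. The 4 libraries with matching labels gave 0.45 for Eln, 0.17 for Mfap5, 0.19 for Loxl1, 0.0422 for Fbln5 and 0.0871 for Ltbp4, with the sign turned, and 1.37 for Mfap4 and -0.02 for Lox, with the sign kept. For differences of ratios to Eln, the ranges with 1 library left out were -0.13 to 0.20 (Fbn1), -0.22 to 0.29 (Efemp2), -0.12 to 0.31 (Ltbp4), -0.15 to 0.22 (Mfap5), -0.0941 to 0.221 (Emilin1) and -0.0498 to 0.336 (Loxl1). By genotype entry these differences were -0.46 (Fbn1), -0.46 (Efemp2), -0.43 (Ltbp4), -0.0839 (Mfap4), -0.22 (Mfap5), -0.42 (Emilin1) and -0.41 (Loxl1).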
